A study of Mus musculus with 6 samples.

Results

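The E2F transcription factors and the pocket proteins that bind them were followed in mouse spleen through 7 E2F genes (E2f1, E2f2, E2f3, E2f4, E2f6, E2f7 and E2f8) and the pocket protein genes Rb1, Rbl1 and Rbl2. Every probe that carries 1 of these 10 gene symbols in the authors' deposited fold-change table was taken, which gave 17 of its 31692 probes, and 10 of 16361 gene symbols, 11 for E2F genes and 6 for pocket proteins. The probes were taken by gene name, but the genes were chosen with earlier results of these data known. The study compared spleens of female NOD mice, which are prone to autoimmune diabetes, after daily intraperitoneal injection of MOTS-c, a peptide encoded in mitochondrial DNA, or of vehicle. MOTS-c was given at 0.5 mg/kg/day, and vehicle was a scrambled version of the peptide, so the controls were injected too. Mice entered the study at 6 weeks of age, and the spleens were taken at 18 weeks after a fast of 16 to 18 h. Total RNA of 3 vehicle and 3 MOTS-c samples was hybridised to 1-colour Agilent arrays. Whether the samples of a group come from separate mice is not stated in the labels. A p-value here therefore reflects the spread of these samples, which may be technical.

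E2F factors bind DNA with a DP partner and control the genes of the G1 to S transition. E2f1, E2f2 and E2f3 are classed as activators, E2f4 as a repressor that works with Rbl1 (p107) and Rbl2 (p130), E2f6 as a Polycomb-linked repressor that binds no pocket protein, and E2f7 and E2f8 as atypical repressors that bind DNA without a DP partner. Pocket proteins hold E2F targets down in resting cells until cyclin-dependent kinases phosphorylate them. In the mouse the spleen makes red cells throughout life, and Rb1, E2f2 and E2f4 have known roles in the proliferation and maturation of red cell precursors.

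Several E2F and pocket protein genes are themselves E2F targets, so the bases before their starts are shown for the members whose promoter holds an E2F-type match. RefSeq promoters (GRCm38.p6) were found for 8 of the 10 genes, with 10 starts in all, and the 250 bases before each start were searched on both strands for 4 forms of the E2F site, namely TTCCCGC, the form TTCGCGC, the form TTGCCGC and the form TTGGCGC. A match lay in 1 promoter each of E2f3, E2f7, E2f8 and Rbl1, while 7.89% of 32851 RefSeq promoters of the same length held one. Capitals mark the match, which reads as the reverse complement where it lies on the other strand. The E2f3 promoter is at chr13:29986064-29986313 (minus strand), that of E2f7 at chr10:110745189-110745438 (plus strand), that of E2f8 at chr7:48881597-48881846 (minus strand) and that of Rbl1 at chr2:157204535-157204784 (minus strand).
E2f3: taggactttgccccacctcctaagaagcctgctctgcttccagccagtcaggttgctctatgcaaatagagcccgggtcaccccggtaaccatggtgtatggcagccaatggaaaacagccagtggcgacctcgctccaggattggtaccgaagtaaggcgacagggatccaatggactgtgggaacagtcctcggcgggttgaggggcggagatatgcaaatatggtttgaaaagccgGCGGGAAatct
E2f7: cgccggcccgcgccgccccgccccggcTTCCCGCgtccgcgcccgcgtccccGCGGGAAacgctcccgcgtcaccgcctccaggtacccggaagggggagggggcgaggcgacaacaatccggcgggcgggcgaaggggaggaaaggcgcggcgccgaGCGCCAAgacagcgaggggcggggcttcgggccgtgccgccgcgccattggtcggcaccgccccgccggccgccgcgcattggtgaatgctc
E2f8: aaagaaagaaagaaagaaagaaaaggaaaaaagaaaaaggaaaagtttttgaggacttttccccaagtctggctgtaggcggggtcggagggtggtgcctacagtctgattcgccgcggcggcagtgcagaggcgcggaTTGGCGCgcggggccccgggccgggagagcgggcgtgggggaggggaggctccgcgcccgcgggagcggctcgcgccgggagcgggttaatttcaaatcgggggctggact
Rbl1: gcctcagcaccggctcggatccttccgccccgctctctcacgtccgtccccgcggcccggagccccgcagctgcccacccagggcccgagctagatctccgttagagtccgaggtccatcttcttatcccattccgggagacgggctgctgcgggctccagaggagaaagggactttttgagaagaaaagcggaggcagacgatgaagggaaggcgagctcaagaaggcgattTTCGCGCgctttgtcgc
E2f7 held 3 matches, whose first bases lay 223, 198 and 92 bases before the start, E2f8 held 1 at 111 bases, E2f3 1 at 11 bases and Rbl1 1 at 17 bases. The CHR letters TTTGAA and TTCGAA are the form of the element that the DREAM complex reads. They lay in 1 promoter each of E2f2, E2f3, E2f8 and Rbl2, of the 10 searched, and in 17.1% of all promoters. Letters of the GATA motif, as AGATAA, the form AGATAG, the form TGATAA or the form TGATAG, were in 0 member promoters and in 26.5% of all promoters. These are matches of letters in a window and not measured binding, and no match says only that the letters are not in that window. A listed start need not be the main start of its gene. The only E2f1 window lies in protein-coding sequence of E2f1, so the region before that gene was not searched. For E2f2, 1 start lies downstream of the other, and the CHR letters of E2f2 are in the window of that downstream start.

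Levels are given as log2 of the processed signal relative to the array's 75th percentile, so 0 is the signal of that percentile. Differences are MOTS-c minus vehicle, and levels of different probes are not comparable. A probe was tested if all 3 arrays of 1 group or of both had it well above background, which left 33734 probes, and all 17 member probes were well above background on all 6 arrays. The arrays had 61.8% to 63.9% of their spots well above background and 0 saturated spots. Vehicle 1 stood apart from the other vehicle arrays, with T cell and B cell markers far lower than on any other array. Vehicle 1 and 2 lay on 1 slide, and vehicle 3 and all 3 MOTS-c arrays on the other, so a fit with slide as a block compares the MOTS-c arrays with vehicle 3 alone. The SD of the log2 difference between 2 arrays was 0.527 to 0.634 among vehicle and 0.375 to 0.396 among MOTS-c. Markers of T cells (12 of 12), B cells (10 of 10), erythroid cells (23 of 23) and macrophages (8 of 8) were well above background on all 6 arrays of this labelled spleen.

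The mean was lower with MOTS-c for 16 of the 17 member probes and for 9 of the 10 genes by their brightest probe, and Rbl2 alone was higher. A lower mean was found for 47.8% of all tested probes and for 48.5% of them at 1 probe a gene. No member probe passed limma's adjusted p of 0.05, a threshold that 0.00593% of all tested probes passed, and 11 had an unadjusted p under 0.05, all of them lower, against 14.1% of all tested probes lower at that level. At an adjusted p under 0.1, 7 member probes were lower and none was higher, where 5.18% of all tested probes were lower and 1.43% higher. The groups did not overlap for 12 probes lower and 1 higher, against 18.5% and 16.3% of all tested probes. The median difference was -1.05 over the 11 E2F probes and -0.74 over the 6 pocket protein probes, with 0.02 over all tested probes. In whole spleen, fewer cells of a type and less RNA per cell cannot be told apart.

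**Figure D1:**
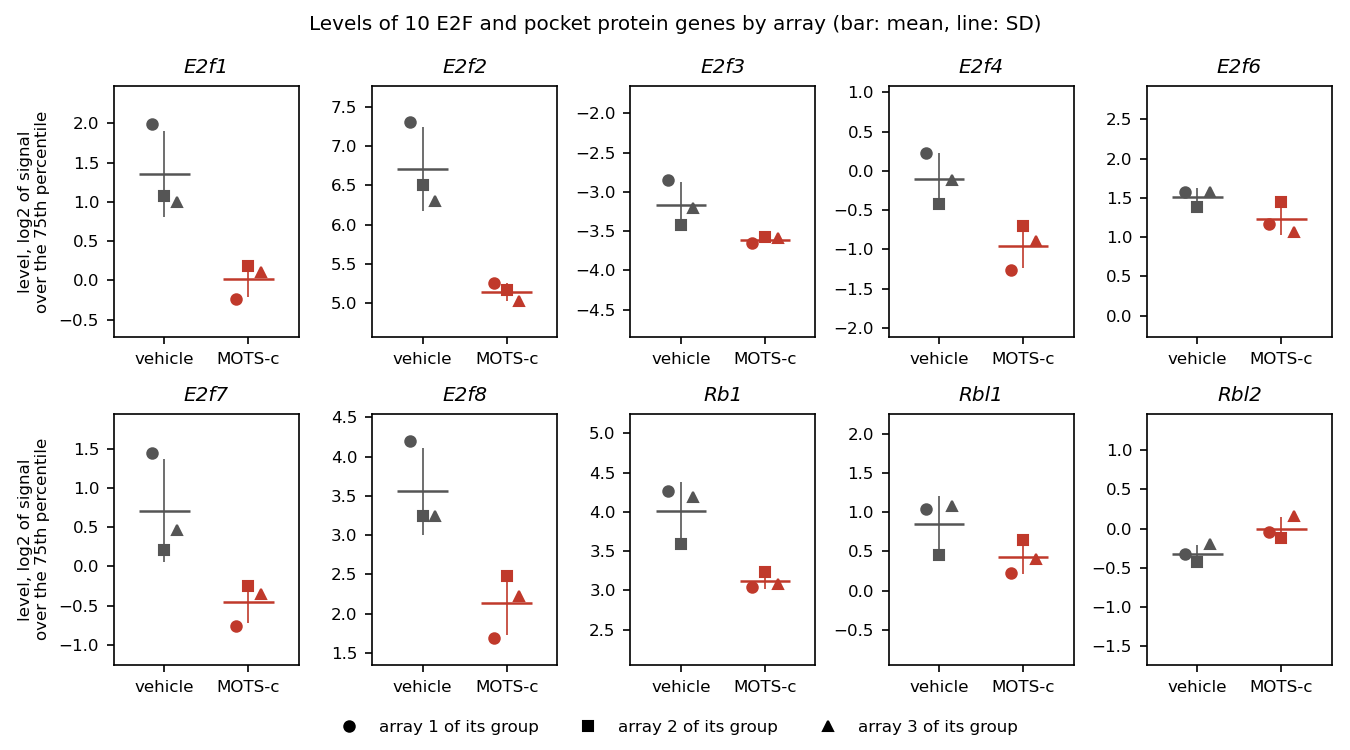
Level of the brightest probe of each of the 10 genes (log2 relative to the array's 75th percentile) on the 3 vehicle and 3 MOTS-c arrays, 1 panel a gene, with points for arrays and bars for group means. The 3 MOTS-c points lie below all vehicle points for E2f1, E2f2, E2f3, E2f4, E2f7, E2f8 and Rb1, lie above them for Rbl2, and overlap them for E2f6 and Rbl1.

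Among the activators, E2f2 and E2f1 were lower with MOTS-c by 1.34 to 1.72 log2 units and E2f3 by less. E2f2, read by probe A_51_P368009 at chr4:135750562-135750621 (mm9, plus strand), had levels of 7.31, 6.50 and 6.30 on vehicle arrays 1, 2 and 3 and of 5.25, 5.16 and 5.02 on MOTS-c arrays 1, 2 and 3. Every MOTS-c array lay below every vehicle array, and vehicle 1 was the highest of the 6. The difference was -1.56 ± 0.27 (SE), 2.95-fold lower, with limma's adjusted p at 0.0795. The other E2f2 probe, A_66_P108394 at chr4:135750358-135750417, gave 6.49, 5.59 and 5.32 on vehicle against 4.19, 4.06 and 3.98 on MOTS-c. It showed the same order of groups with no overlap, and its difference was -1.72 ± 0.30 (SE), also with an adjusted p of 0.0795. Without vehicle 1 the difference was -1.26 at the brighter probe and -1.38 at the dimmer one, and with slide as a block it was -1.16 and -1.24. Both E2f2 probes passed the threshold under 2 other settings. Without vehicle 2, limma's adjusted p values were 0.0483 and 0.0494, and 2.87% of all tested probes were lower past the threshold. With normexp background correction and levels still set relative to the percentile, both had an adjusted p of 0.0486 by limma. There 1.64% of all tested probes were lower past the threshold. With normexp followed by quantile normalization, both had an adjusted p of 0.065 by limma and did not pass.

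E2f1, whose product drives S phase genes and can also trigger cell death, was read by 1 probe at chr2:154385798-154385857 (minus strand). Its levels were 1.99, 1.07 and 1.00 on vehicle arrays 1, 2 and 3 and -0.24, 0.18 and 0.11 on the MOTS-c arrays. Vehicle 2 and vehicle 3 were close to each other, vehicle 1 was far above both, and all MOTS-c arrays lay below them. The difference was -1.34 ± 0.29 (SE), 2.53-fold lower, with an adjusted p of 0.08 by limma, and it was -1.02 without vehicle 1 and -0.98 with slide as a block. E2f3, the third activator, was read by a dim probe whose span of 1087 bases, chr13:30001985-30003071 (minus strand), is longer than the 60-base probe, so it crosses an intron in the array's design. E2f3 levels were -2.85, -3.42 and -3.21 on vehicle and -3.65, -3.58 and -3.59 on MOTS-c. The groups did not overlap but vehicle 2 came within 0.16 of the highest MOTS-c array, and the difference of -0.45 ± 0.18 (SE) had an adjusted p of 0.181. It was -0.29 without vehicle 1, over 1.5 times smaller.

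E2f4 and E2f6, repressors of different kinds, differed by unequal amounts. The E2f4 probe at chr8:107829156-107829215 (plus strand) read 0.23, -0.42 and -0.12 on vehicle and -1.27, -0.71 and -0.90 on MOTS-c. All 3 MOTS-c arrays were below all vehicle arrays, and vehicle 2 was nearest to them. The difference was -0.85 ± 0.23 (SE), 1.81-fold lower, with an adjusted p of 0.0987, and it was nearly the same with slide as a block, at -0.84. The E2f6 probe at chr12:16833463-16833522 (plus strand) read 1.58, 1.38 and 1.58 on vehicle and 1.17, 1.45 and 1.07 on MOTS-c. Here MOTS-c 2 lay above vehicle 2, so the groups overlapped, and the difference was -0.28 ± 0.16 (SE) with an adjusted p of 0.3. E2f6 had the smallest difference of the 7 E2F genes by their brightest probe, but whether it differs from that of another E2F gene was not tested.

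The atypical repressors were lower with MOTS-c at their brightest probes. For E2f8 the probe A_55_P2000833 at chr7:56121860-56121919 (minus strand) gave 4.20, 3.24 and 3.24 on vehicle and 1.69, 2.48 and 2.22 on MOTS-c. The groups were separate, with vehicle 1 highest and MOTS-c 1 lowest. The difference was -1.43 ± 0.32 (SE), 2.7-fold lower, with an adjusted p of 0.0816. The dimmer E2f8 probe at chr7:56134203-56134262, which has no RefSeq accession in the array table, read -0.44, -1.31 and -0.89 against -2.36, -1.66 and -1.78. It showed the same extremes and no overlap, at a difference of -1.05 ± 0.28 (SE) and an adjusted p of 0.0993. Slide as a block left -1.11 and -1.05 at these probes, and leaving out vehicle 1 left -1.11 and -0.83.

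E2f7, the other atypical factor, had 3 probes that did not give 1 size. The brightest, A_55_P2062598 at chr10:110224331-110224390 (plus strand), read 1.45, 0.21 and 0.46 on vehicle and -0.76, -0.25 and -0.35 on MOTS-c. The groups were separate, and vehicle 1 lay about 1 log2 unit above the other vehicle arrays. The difference was -1.16 ± 0.33 (SE) with an adjusted p of 0.113. The probe at chr10:110204765-110204824, which has no RefSeq accession assigned, read -1.72, -2.87 and -2.98 on vehicle and -3.97, -3.06 and -2.91 on MOTS-c. The dimmest, at chr10:110219255-110219314, read -3.99, -4.58 and -4.41 against -4.68, -4.48 and -4.36. At both of these dim probes the groups overlapped, since vehicle 3 lay below the highest MOTS-c array. Their differences were -0.79 ± 0.41 and -0.18 ± 0.20 (SE), with adjusted p values of 0.261 and 0.564, and without vehicle 1 they were -0.39 and -0.01, against -0.78 at the brightest probe.

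**Figure D2:**
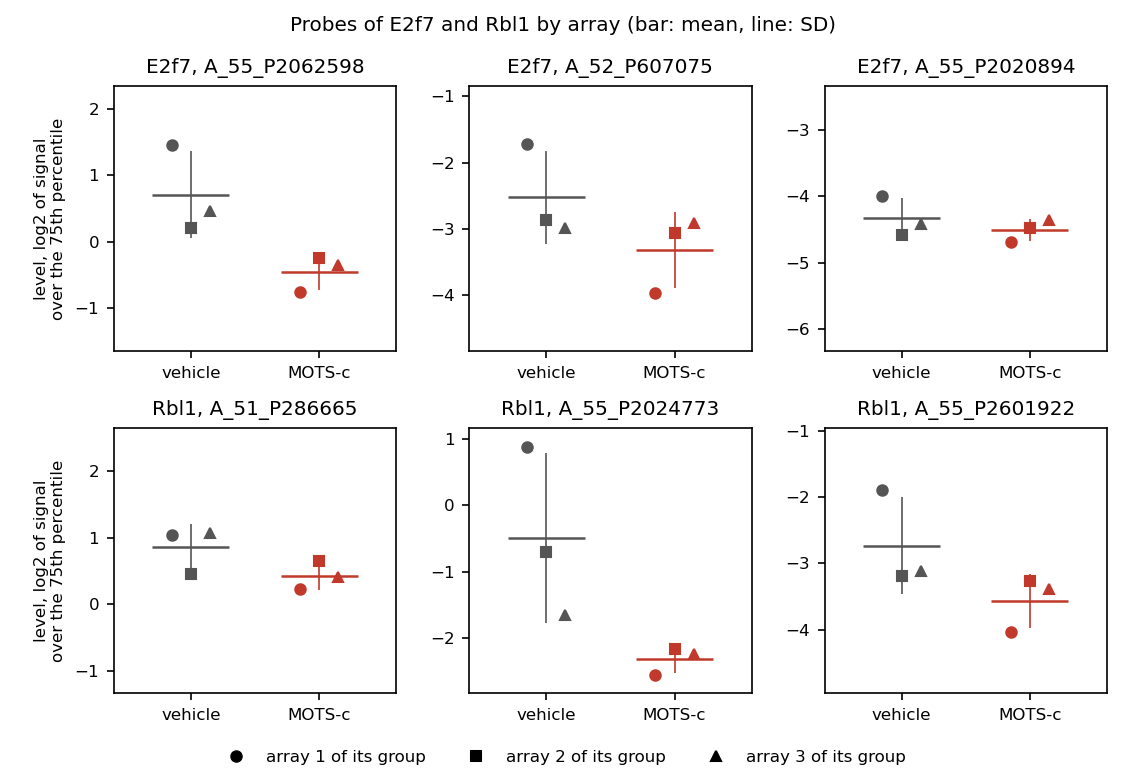
Levels (log2 relative to the array's 75th percentile) of the 3 E2f7 and 3 Rbl1 probes on the 3 vehicle and 3 MOTS-c arrays, 1 panel a probe, with points for arrays and bars for group means. Vehicle 1 is the highest array in 5 of the 6 panels, and at the E2f7 probes with differences of -0.79 and -0.18 vehicle 3 lies below the highest MOTS-c array.

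Of the pocket proteins, Rb1 was lower with MOTS-c, Rbl2 was slightly higher, and Rbl1 was lower at each of its 3 probes. Rb1 encodes the retinoblastoma protein, which restrains E2F1 to E2F3. Its probe A_51_P136888 at chr14:73595408-73595467 (minus strand) read 4.26, 3.59 and 4.19 on vehicle and 3.04, 3.24 and 3.08 on MOTS-c. The groups were separate, and here vehicle 1 did not stand apart, since vehicle 3 had nearly the same level. The difference was -0.90 ± 0.21 (SE), 1.86-fold lower, with an adjusted p of 0.0851, and it was -1.07 with slide as a block and -0.77 without vehicle 1. Without vehicle 2, the vehicle array nearest to the MOTS-c group, its adjusted p by limma was 0.0454. At that setting 2.87% of all tested probes were lower past 0.05. The other Rb1 probe, at chr14:73596841-73596900, read 1.35, 0.68 and 1.28 on vehicle and 0.23, 0.56 and 0.58 on MOTS-c, again without overlap. It differed by -0.65 ± 0.22 (SE), with limma's adjusted p at 0.141, and at 0.0593 without vehicle 2.

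Rbl1 has 2 RefSeq transcripts among its probes, and the first 30 bases of each 60-base probe are shown because 3 probes read this 1 gene.
A_51_P286665: acactggaggtttagccttctgaagaatca
A_55_P2024773: ccgagaggaattggaggaggggaaaacttg
A_55_P2601922: gctggattaaaaagcgcaccaagtgagcag
The brightest, A_51_P286665 at chr2:156972143-156972202 (mm9, minus strand), is assigned to NM_011249, and the others, A_55_P2024773 at chr2:157000761-157000820 and A_55_P2601922 at chr2:157014059-157017689, to NM_001139516. At A_51_P286665 the levels were 1.04, 0.45 and 1.08 on vehicle and 0.23, 0.65 and 0.41 on MOTS-c. Vehicle 2 lay among the MOTS-c arrays, and the difference was -0.43 ± 0.22 (SE) with an adjusted p of 0.254. At A_55_P2024773 they were 0.88, -0.70 and -1.66 on vehicle and -2.55, -2.17 and -2.24 on MOTS-c. The groups did not overlap, but the vehicle arrays were spread with an SD of 1.3 against 0.21 for MOTS-c (n = 3 each). The difference of -1.83 ± 0.57 (SE), 3.54-fold lower, had an adjusted p of 0.127. It was -1.14 without vehicle 1, over 1.5 times smaller. At A_55_P2601922, whose span of 3631 bases crosses an intron, they were -1.89, -3.19 and -3.12 on vehicle and -4.03, -3.27 and -3.39 on MOTS-c. The groups were separate by 0.09, and the difference of -0.83 ± 0.38 (SE) had an adjusted p of 0.219 and was -0.41 without vehicle 1. With slide as a block the differences at the 3 probes, in the order printed, were -0.65, -0.66 and -0.45, closer to each other than the -0.43, -1.83 and -0.83 of all 6 arrays. A test of the difference between the Rbl1 probes was not run.

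Rbl2, which encodes the pocket protein typical of resting cells, was the only member with a higher mean. Its probe at chr8:93647120-93647179 (plus strand) read -0.32, -0.43 and -0.20 on vehicle and -0.04, -0.12 and 0.16 on MOTS-c. All MOTS-c arrays lay above all vehicle arrays, by a narrow gap of 0.08 between vehicle 3 and MOTS-c 2. The difference was 0.31 ± 0.15 (SE), 1.24-fold higher, with an adjusted p of 0.236 by limma. It was 0.31 without vehicle 1 and 0.20 with slide as a block.

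**Figure D3:**
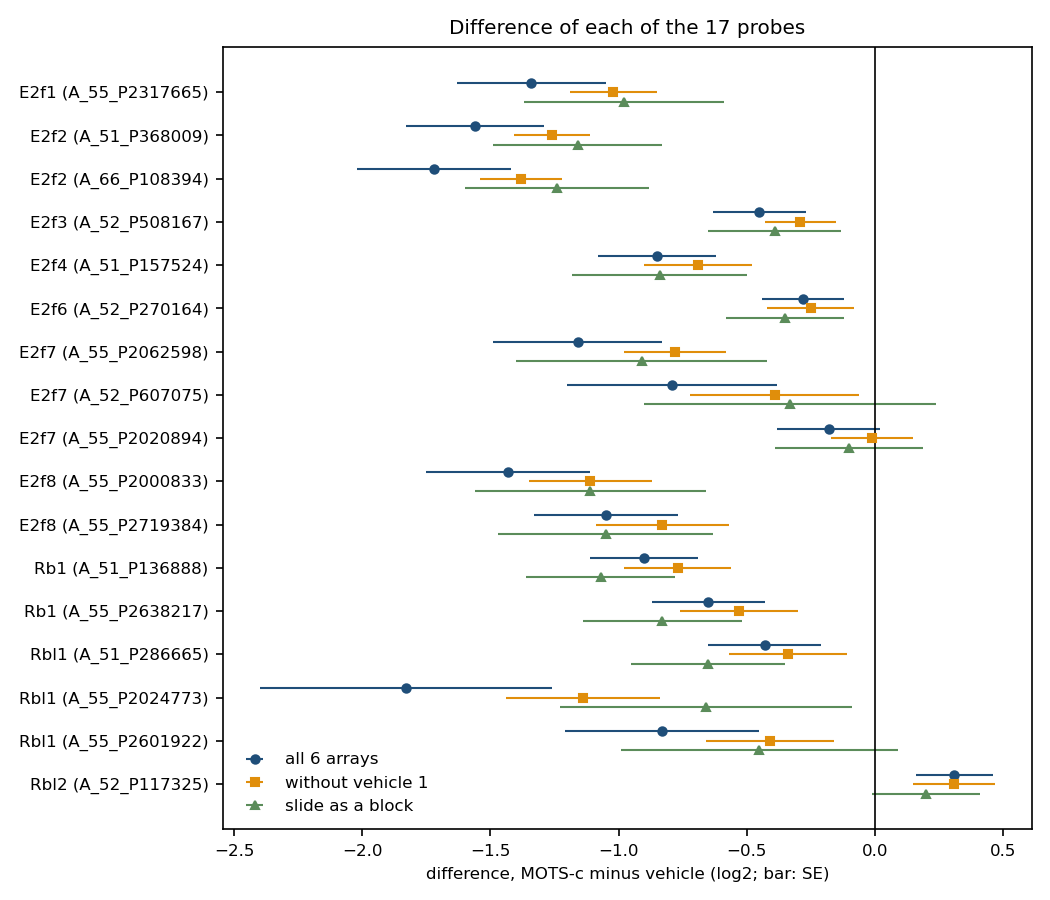
Difference between MOTS-c and vehicle (log2) for the 17 member probes with the SE of the limma fit, beside the same difference without vehicle 1 and with slide as a block. All 16 probes below 0 stay below 0 in both other fits, most of them nearer to 0, and the Rbl2 probe stays above 0 at 0.31 and 0.20.

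On the slide that vehicle 3 shares with the MOTS-c arrays, all 3 of these were below vehicle 3 for 14 of the 17 member probes, as they were for 30.8% of all tested probes. At the 2 dim E2f7 probes 2 of 3 MOTS-c arrays were below it, and at Rbl2 0 of 3 were. In the authors' deposited table, 7 member probes had a p-value under 0.05 and a lower level with MOTS-c, where 7.9% of all probes of that table did. They were the probes of E2f1, E2f2, E2f4 and E2f8 and the brighter Rb1 probe. Rbl2 was the 1 member higher there, with the authors' deposited table giving a signed fold of 1.25 and a p-value of 0.0429, where 5.54% of all probes were higher. The smallest adjusted p of a member in the authors' deposited table was 0.37.

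The genes that work with the members were read from lists, each gene by its brightest probe, and none passed the adjusted p of 0.05. Over all tested probes at 1 probe a gene, 0.00889% passed it, 5.19% were lower and 1.36% higher at an adjusted p under 0.1, and 19.1% were lower and 15.8% higher without overlap. Of the DP partners, Tfdp1 was -0.71 ± 0.18 (SE; adjusted p = 0.0924) and Tfdp2 -1.11 ± 0.27 (0.0879), and the 4 Tfdp2 probes ranged from -1.49 to -0.11. E2f5, the E2F family gene listed with them and a repressor like E2f4, was higher. Its levels were -3.24, -3.14 and -2.73 on vehicle and -2.20, -2.38 and -2.19 on MOTS-c, without overlap. The difference was 0.78 ± 0.18 (SE) with an adjusted p of 0.0848, 0.67 without vehicle 1 and 0.47 with slide as a block.

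Upstream of the pocket proteins, 7 of 9 G1 and S cyclins and their kinases were lower and 3 had an adjusted p under 0.1, with a median of -0.70. Only 8 of the 9 were well above background on all 6 arrays. With only such probes, 6 of 8 were lower, at a median of -0.57. Cyclin E, which phosphorylates pocket proteins with Cdk2, was lower in both forms, Ccne1 at -1.35 ± 0.27 (SE; adjusted p = 0.0795) and Ccne2 at -1.31 ± 0.34 (0.0976). The Ccne2 probe was the dimmest of the 9, with mean levels of -4.06 on vehicle and -5.37 on MOTS-c, so its difference rests on weak signal. The D cyclins, which act with Cdk4 and Cdk6 early in G1, did not share 1 direction. Ccnd1 was 0.70 ± 0.39 (0.288), Ccnd2 0.69 ± 0.30 (0.207) without overlap, and Ccnd3 -0.70 ± 0.21 (0.116). Without vehicle 1 these differences were 0.28, 0.34 and -0.52. The 3 Ccnd3 probes ranged from -0.77 to -0.23. Cyclin A2 (Ccna2) was -1.14 ± 0.28 (0.0883) and Cdk2 -0.87 ± 0.24 (0.109). Among the CDK inhibitors, which keep pocket proteins active, 4 of 7 were lower and 2 had an adjusted p under 0.1, with a median of -0.47. These were the inhibitors of Cdk4 and Cdk6 Cdkn2c (p18), at -1.30 ± 0.22 (0.0795), and Cdkn2d (p19), at -0.87 ± 0.18 (0.08). Cdkn1b (p27) was -0.47 ± 0.22 (0.225), and Cdkn2b (p15) was 0.41 ± 0.19 (0.214).

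The MuvB core joins E2F4 and the pocket proteins Rbl1 or Rbl2 in the repressive DREAM complex, and B-Myb (Mybl2) and FoxM1 in cycling cells. Of 7 such genes, 5 were lower and 2 had an adjusted p under 0.1, Mybl2 at -1.35 ± 0.26 (SE; 0.0795) and Foxm1 at -0.84 ± 0.19 (0.0841). The MuvB subunits Lin9 at -0.87 ± 0.24 (0.103) and Rbbp4 at -0.64 ± 0.18 (0.112) were next, and the median was -0.64. The 5 Lin9 probes ranged from -0.91 to -0.18, and the 2 Rbbp4 probes from -0.64 to -0.04. Of 7 partners of E2F6 in the Polycomb complex PRC1.6, 3 were lower and none had an adjusted p under 0.1, with a median of 0.19. Cbx3 was -0.61 ± 0.16 (0.101), Mga 0.37 ± 0.15 (0.182), Pcgf6 0.25 ± 0.16 (0.323) and Rnf2 0.19 ± 0.14 (0.398). Of 8 corepressors of pocket proteins, 6 were lower and none had an adjusted p under 0.1, with a median of -0.17. The histone methyltransferase Suv39h1 was -0.80 ± 0.23 (0.11) and Sin3a -0.60 ± 0.27 (0.213), while Arid4b was 0.26 ± 0.14 (0.284). The 2 Suv39h1 probes ranged from -0.80 to -0.34, and the 6 Arid4b probes from -0.17 to 0.26. Sin3b was -0.40 ± 0.16 (0.184) at its brightest probe and 1.94 at another.

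Downstream, all 25 S phase genes of the E2F target list were lower without overlap between groups, and 24 had an adjusted p under 0.1, with a median of -1.15. The replication origin factor Orc1 was -1.41 ± 0.20 (SE), the polymerase subunit Pola1 -1.06 ± 0.17 and the licensing inhibitor Gmnn -1.50 ± 0.25, each with an adjusted p of 0.0795. All 15 mitosis genes of the DREAM target list were lower without overlap, 14 with an adjusted p under 0.1, and the median was -1.16. Cdk1 was -1.37 ± 0.25 (SE), Ube2c -1.20 ± 0.20, Kif20a -1.20 ± 0.22 and Birc5 -1.16 ± 0.21, again with an adjusted p of 0.0795. Without vehicle 1, 6 S phase and 5 mitosis genes had an adjusted p under 0.1, at medians of -0.93 and -0.99. With slide as a block, or without any 1 of the MOTS-c arrays, 0 of either list had one, while all 25 and all 15 were still lower. Both lists, like the other lists here, were drawn up with earlier results of these arrays known, so their direction is not independent evidence.

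**Figure D4:**
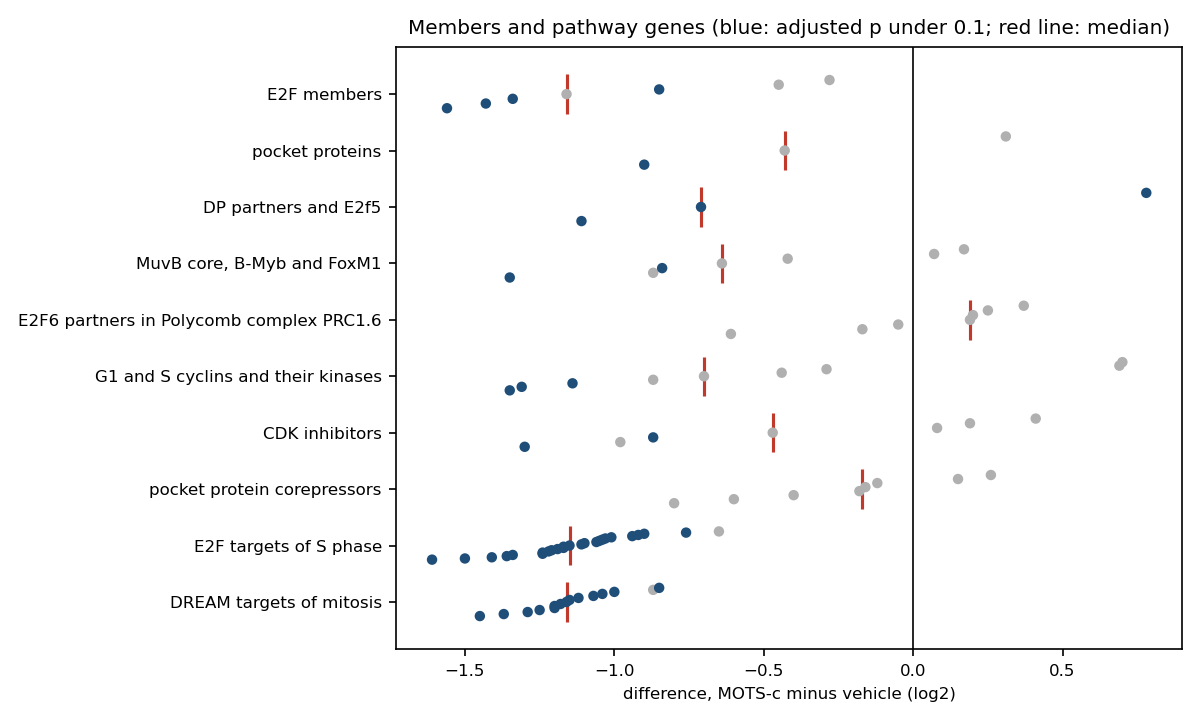
Difference between MOTS-c and vehicle (log2) of each gene by its brightest probe, in rows by role, with a bar at each row's median. The S phase and mitosis rows lie wholly below 0 with medians of -1.15 and -1.16, whereas the PRC1.6 row spreads around 0 with a median of 0.19.

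For each member the genes with the nearest profile over the 6 arrays were sought among 16930 genes, by the root mean square distance of the centred log2 levels. E2f1 was nearest to Mybl2 (0.067) and Ticrr (0.068), and E2f2 to Nek2 (0.082) and Cdc25c (0.09). E2f4 was nearest to Dnmt1 (0.058) and Cdk2 (0.062), E2f7 to H4f16 (0.055) and Tmem120b (0.063), and E2f8 to Atad5 (0.059) and Clspn (0.101). Ticrr, Atad5 and Clspn act in DNA replication or its checkpoint, and Nek2 and Cdc25c in mitosis. E2f3 was nearest to Cdk8 (0.03) and Wdr89 (0.032), and E2f6 to Cox20 (0.045) and Ormdl2 (0.053). Rb1 lay nearest to Prdx3 (0.036) and Slc25a38 (0.054), a carrier needed for heme synthesis, Rbl1 to Usp45 (0.042) and Apex2 (0.063), and Rbl2 to Anks1 (0.021) and Rest (0.034). These distances are descriptions over 6 arrays, and genes of small differences lie close to many others.

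The marker lists of cell types were read on the same arrays, and 0 of their genes passed limma's adjusted p of 0.05. These lists too were chosen with earlier results of these data known, so their direction is not independent evidence. All 23 erythroid genes were lower without overlap, 20 with an adjusted p under 0.1, with a median difference of -1.19. Of all tested probes at 1 probe a gene, 19.1% were lower and 15.8% higher without overlap. At an adjusted p under 0.1, 5.19% were lower and 1.36% higher. Without vehicle 1, 6 erythroid genes had such a p, where 1.36% of all tested probes were lower at it. Without any 1 of the MOTS-c arrays, 0 erythroid genes had one. The erythroid median was -1.0 without vehicle 1 and -1.25 with slide as a block. The mean level of the list was 4.09 to 4.93 on vehicle and 3.23 to 3.51 on MOTS-c. Among them, the erythropoietin receptor Epor was -1.38 ± 0.25 (SE) with an adjusted p of 0.0795. In contrast all 12 T cell genes had a higher mean without overlap, with a list level of 1.25 to 2.77 on vehicle and 3.18 to 3.29 on MOTS-c. Their median difference was 0.96, with 1 gene at an adjusted p under 0.1, and it was 0.41 without vehicle 1. All 10 B cell genes had a higher mean, 4 of them without overlap, with list levels of 0.91 to 2.60 and 2.56 to 2.76, and their median of 0.72 was 0.28 without vehicle 1. The 8 NK and cytotoxic cell genes had higher means too, with list levels of -1.53 to 0.27 and 0.37 to 0.79, and 7 of them were well above background on all 6 arrays. Their median of 1.01 was 0.44 without vehicle 1. Over the 9 neutrophil, 8 macrophage and 5 megakaryocyte genes no gene had groups that did not overlap, and their median differences were 1.05, -0.14 and 0.11. These had no settled sign: with slide as a block the neutrophil median was -0.21 and the megakaryocyte median -0.45, and with quantile normalization the macrophage median was 0.03. The megakaryocyte median was also -0.10 without vehicle 1 and -0.06 without MOTS-c 1.

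The E2F members deviated from their mean over the 6 arrays in the order of the S phase list. The mitosis and erythroid lists had nearly that order. The mean deviation of the 7 E2F genes was 0.98, 0.22 and 0.32 on vehicle 1, 2 and 3 and -0.69, -0.33 and -0.49 on MOTS-c 1, 2 and 3. For the S phase list it was 0.96, 0.30 and 0.45 against -0.81, -0.29 and -0.60. For the mitosis list it was 0.94, 0.27 and 0.50 against -0.64, -0.30 and -0.77. For the erythroid list it was 0.98, 0.14 and 0.64 against -0.61, -0.43 and -0.72. Vehicle 1 was the highest array in each of these lists, and MOTS-c 2 was the nearest of its group to vehicle. The 3 pocket protein genes had 0.31, -0.15 and 0.34 against -0.27, -0.09 and -0.14, and vehicle 2 lay within the MOTS-c range. The T cell list had -1.47, -0.10 and 0.05 against 0.57, 0.49 and 0.46. The part of erythroid, T cell or B cell content in the member differences was not tested.

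**Figure D5:**
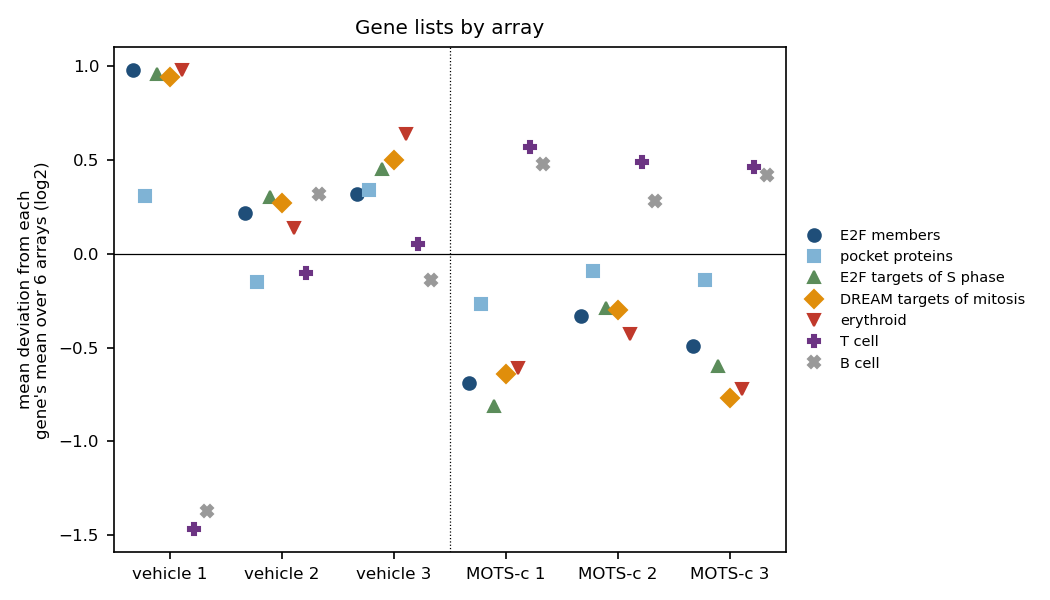
Mean deviation (log2) of each gene list from its genes' means over the 6 arrays, with 1 position an array and 1 marker a list. E2F members, S phase, mitosis and erythroid lists are above 0 on all vehicle arrays and below 0 on all MOTS-c arrays, and the T cell and B cell lists are lowest on vehicle 1, at -1.47 for T cells.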

How the data were processed

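RNA from the spleens, 3 samples a group, was hybridised to 1-colour arrays, and Agilent Feature Extraction 11.0.1.1 gave a background-subtracted processed signal intensity per spot, per the file headers. Those deposited intensities were not normalized between arrays. The authors' deposited table holds log2 values for 31692 probes, a signed fold as a score, and a p-value with its adjustment. Its log2 columns share 1 minimum, median and maximum, as quantile normalization gives; the tool and the authors' test are not given in the sources used here.

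Control and outlier spots (97 to 145 an array) were left out, spots of a probe were averaged, and log2 intensity was set relative to the array's 75th percentile (a signal of 678.0 to 925.5). Probes that were well above background on every array of a group, in either group or both, were fitted in limma 3.58.1 (R 4.3.3; lmFit and eBayes, two-sided, Benjamini-Hochberg over 33734 probes, threshold 0.05). On simulated data of 33734 probes this called 25 of 100 probes with a true log2 difference of -1, 76 of 100 with -2, and 8 unchanged ones. The simulated probes varied independently, with no shift shared across an array or slide, so these rates need not hold for the real arrays. An exact permutation test of 3 against 3 arrays cannot go below a p of 0.1, so none was run. Probe positions come from the array design (mm9), and their place in exons was not determined.

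Named were all members, up to 4 genes with the smallest p of each list described, and the 2 nearest profiles of each member. Some genes that this rule names are left out of the text. The members and lists were chosen with earlier results of these data known. Alternatives were quantile normalization, normexp (offset 50, on median intensities), the authors' log2 values, other probe filters, slide or replicate number as a block, and leaving out each array.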

Additional observations from a re-analysis of the deposited data

How the results depend on the processing

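None of the 248 values of member probes under 15 other settings changed sign, and 9 of 10 member genes had a lower mean under each. The counts reported at an adjusted p of 0.05 are 2 of all probes and 0 of member probes (limma; 11 members at an unadjusted p under 0.05). Normexp with the 75th percentile gave 584 and 2, the latter both E2f2. All-probe counts were 0 with normexp and quantile normalization, with the authors' deposited log2 values, without a filter on dim probes and with only probes well above background on all 6 arrays, and 1 with slide as a block. Leaving out 1 array gave 0 to 1113 probes and 0 to 3 member probes: 1113 and 3 (both E2f2 and Rb1) without vehicle 2, 39 without vehicle 3, 0 without vehicle 1 or MOTS-c 3, and 1 without MOTS-c 1 or 2. Member probes at an adjusted p under 0.1 numbered 7 as reported (5.18% of all probes lower), 3 without vehicle 1 (1.36%), 4 with quantile normalization (3.9%), 8 with normexp and the 75th percentile (7.51%), 9 without vehicle 2 (8.5%) and 6 without vehicle 3 (9.23%). Without any 1 MOTS-c array, without the filter, or with slide or replicate number as a block, they numbered 0, and at most 1 of all probes was lower at such a p.

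With replicate number as a block, 0 probes and 0 member probes passed. Same-numbered arrays did not deviate together (correlations of -0.171, 0.006 and -0.09), and unlike-numbered arrays gave -0.129 to 0.186. With 3 arrays a group such correlations cannot settle whether the samples were paired by design.

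The median of MuvB, B-Myb and FoxM1 genes was -0.39 with quantile normalization, -0.41 with normexp before it and -0.39 on the authors' values. For G1 and S cyclins these were -0.47, -0.43 and -0.45, and for CDK inhibitors -0.25, -0.30 and -0.25. CDK inhibitors ranged from -0.69 (without vehicle 2) to -0.29 (without vehicle 1). PRC1.6 genes gave 0.11 with slide as a block and 0.08 to 0.23 with 1 array left out, the lowest without vehicle 1. The causes were not tested. The number of arrays, 3 a group, limits the precision.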
